A study of Homo sapiens with 10 samples.

Results

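The sphingosine-1-phosphate (S1P) receptors and the genes of GNA13-dependent confinement were followed through 4 pure human leukaemia and lymphoma lines and 6 mixtures of them. Members were the rows of the expression table that carry the symbol S1PR1, S1PR2, S1PR3, S1PR4, S1PR5, GNA13, P2RY8, ARHGEF1, SPHK1 or GPR183. Of these 10 symbols, 9 had a row among the 20591 genes of the table, and P2RY8 was not analysed here. The pure lines were HL60 (acute leukaemia with promyelocyte features), K562 (chronic myeloid leukaemia, with erythroid features), SUDHL4, a diffuse large B cell lymphoma line of germinal-centre type, and THP1, a monocytic acute leukaemia line. All are labelled wild type (WT), untreated and harvested at day 0, and all grew in RPMI with 10% fetal bovine serum. The mixtures, numbered 1 to 6, pooled the same 4 lines in ratios that the labels do not state. Bulk RNA sequencing gave 1 library for each line and each mixture, so no difference between libraries has a replicate check and none carries a p-value.

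S1P is a lysophospholipid that sphingosine kinases make inside cells and that transporters release, and it is rich in blood and lymph and scarce inside tissues. Its receptors share a ligand and differ in the G proteins they engage. S1PR1 signals through inhibitory G proteins and draws lymphocytes out of lymphoid organs, whereas S1PR2 engages the G protein alpha subunit encoded by GNA13. That subunit acts on ARHGEF1, an exchange factor that activates the GTPase RhoA, and the outcome is restrained migration that holds germinal-centre B cells in the follicle centre. P2RY8 feeds into the same subunit. GPR183 works by attraction instead: it reads oxysterols, carries activated B cells to the outer follicle, and is turned down when B cells enter the germinal centre. In germinal-centre lymphomas, S1PR2, P2RY8 and GNA13 are recurrently mutated; mutations were not analysed here.

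Values are normalised CPM, that is, reads per 1000000 after the authors' rescaling between libraries. Libraries held 24985570 to 36607612 reads. A gene with 1 read stood at 0.0409 to 0.0594 normalised CPM, and each further read added 0.0273 to 0.0396. Brackets with "95%" are exact counting intervals of the recovered reads, ratios are ratios of reads scaled by library, and a gene with 0 reads is given an upper limit of 3 reads, between 0.0955 and 0.139 normalised CPM. All of these cover counting error only. Enriched in a line means a level of 5 normalised CPM or more in that line and a log2(value + 1) that exceeds each of the other 3 lines by 2 or more. The line labels were checked against marker lists: 6 of 6 B cell markers were highest in SUDHL4, 6 of 6 erythroid markers in K562 and 6 of 6 monocyte markers in THP1. For HL60, 3 of 5 granulocyte-precursor markers were highest in it, and PRTN3 and AZU1 were higher in THP1. Of the T and NK cell markers, 5 of 6 were measured. Their summed level was 12.4 in HL60, 15.3 in K562, 5.09 in SUDHL4 and 45.2 in THP1. NKG7 alone had 44.9 in THP1 and 11.4 in HL60. CD3D had 14.6 in K562, where it was called enriched, and CD3E had 4.83 in SUDHL4. CD3G reached at most 0.409, in K562. CD8A was at 0 in all lines but THP1, where it had 0.138. Of the stromal and endothelial markers, 4 of 6 were measured, and their summed level was 0.0838 in HL60, 22.3 in K562, 0.220 in SUDHL4 and 2.43 in THP1. COL1A2 made up 21.9 of the K562 sum.

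Promoter sequence is shown for the 3 members that passed a line rule and have a single start in RefSeq (GRCh38.p14), to show the region next to the start of receptors that set the lines apart. Each run holds the 250 bases before the start, read 5′ to 3′ on the gene's strand. Capitals mark a match to any of 5 motifs searched on both strands. The motif of ETS factors was searched as GGAAGT, that of GATA factors as AGATAA and the E-box as CAGCTG. The motif of C/EBP factors was searched as TTGCNNAA. The cyclic AMP response element (CRE), searched as TGACGTCA, was added after the S1PR2 sequence had been seen.
S1PR2 promoter, chr19:10231332-10231581, minus strand: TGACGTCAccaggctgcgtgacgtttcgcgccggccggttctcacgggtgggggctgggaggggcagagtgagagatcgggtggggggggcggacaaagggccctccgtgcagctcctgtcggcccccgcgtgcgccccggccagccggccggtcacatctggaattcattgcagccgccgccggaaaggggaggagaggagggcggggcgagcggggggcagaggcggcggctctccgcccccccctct
S1PR4 promoter, chr19:3178519-3178768, plus strand: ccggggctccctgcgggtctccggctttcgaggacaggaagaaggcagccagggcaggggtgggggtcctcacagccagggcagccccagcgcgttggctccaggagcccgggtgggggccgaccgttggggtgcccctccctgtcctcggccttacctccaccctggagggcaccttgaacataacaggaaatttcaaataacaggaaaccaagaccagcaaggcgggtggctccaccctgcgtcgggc
GPR183 promoter, chr13:99307400-99307649, minus strand: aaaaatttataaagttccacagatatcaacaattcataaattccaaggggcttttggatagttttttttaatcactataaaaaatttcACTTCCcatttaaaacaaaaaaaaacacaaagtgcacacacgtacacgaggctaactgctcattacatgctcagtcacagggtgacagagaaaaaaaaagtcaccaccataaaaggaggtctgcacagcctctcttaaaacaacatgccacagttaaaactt
The S1PR2 window was 74% G and C with 27 CpG dinucleotides, and its first bases, 250 before the start, are a CRE, a motif held by 1.65% of 35116 such windows over all genes. The S1PR4 window was 66.8% G and C with 13 CpG and held none of the 5 motifs. The GPR183 window was 34.4% G and C with 2 CpG, against a median of 58% over all windows, and held 1 ETS match on the opposite strand (ACTTCC) 162 bases before the start, as did 19.5% of windows for that motif. No motif overlapped another in these 3 windows, and a match is a description of the letters only. The S1PR4 window lies inside the span of a longer S1PR4 transcript in GENCODE 29, which begins at base 3172346 of chromosome 19.

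**Figure D1:**
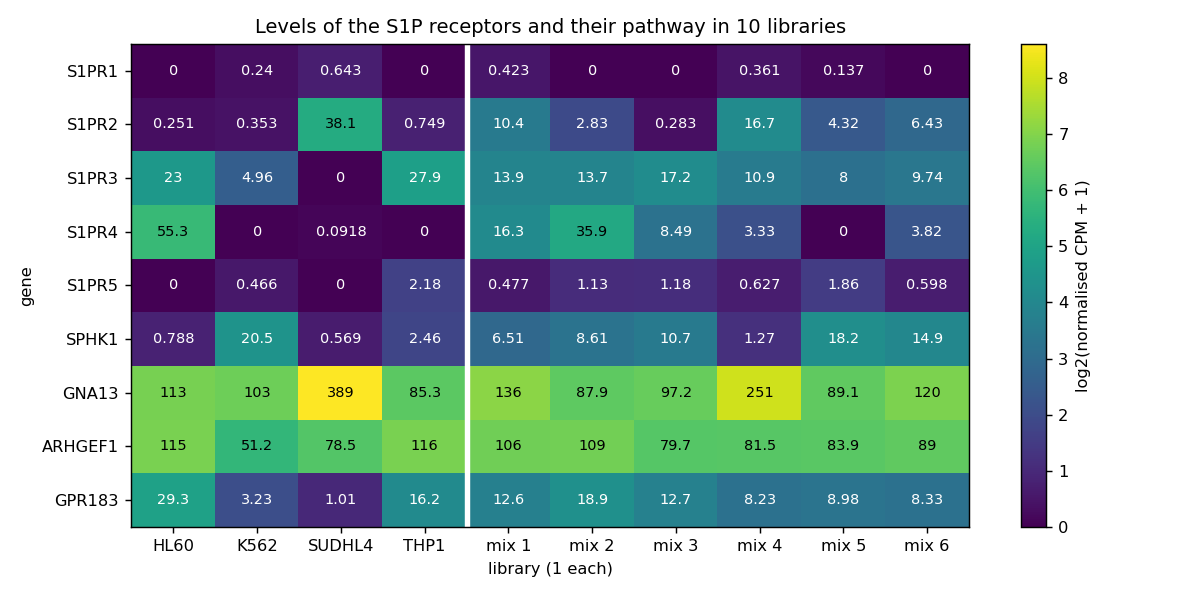
Level of each of the 9 measured members in the 10 libraries; rows are genes, columns are the 4 pure lines and, right of the white bar, mixtures 1 to 6, colour is log2(normalised CPM + 1) and the printed numbers are normalised CPM, 1 library each. S1PR2 stands out in SUDHL4 (38.1), S1PR4 in HL60 (55.3) and SPHK1 in K562 (20.5), while ARHGEF1 stays between 51.2 and 116 everywhere.

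The lines differed in which S1P receptor was most abundant, except that S1PR3 led in both THP1 and K562. S1PR4 was enriched in HL60, S1PR2 in SUDHL4, and S1PR3 was high in both THP1 and HL60 and at 0 reads in SUDHL4. S1PR1 and S1PR5 stayed under 5 normalised CPM in every library, so 7 of the 9 members could be called. Of these 7, 1 was enriched in HL60 (S1PR4), 1 in SUDHL4 (S1PR2), 1 in K562 (SPHK1) and 0 in THP1. The share of all 11717 genes at that level called enriched was 0.973% in HL60, 3.56% in SUDHL4, 4.6% in K562 and 5.03% in THP1.

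S1PR2, the confining receptor (ENSG00000267534, chr19:10221433-10231331, minus strand in GRCh38), had 38.1 normalised CPM in SUDHL4 (95% 35.8 to 40.5, from 1037 reads). It had 0.749 in THP1, 0.353 in K562 and 0.251 in HL60, from 24, 12 and 7 reads. SUDHL4 thus lay 51.9-fold above THP1 (95% 34.7 to 81.4), the next line. THP1 lay 2.16-fold above K562 (95% 1.04 to 4.75), while K562 and HL60 could not be separated (1.44-fold, 95% 0.524 to 4.33). Outside the lymphoma line, S1PR2 was thus carried by a few reads per library. DNMT1, the maintenance DNA methyltransferase, overlaps S1PR2 on the same strand and also peaked in SUDHL4, at 384 against 230 in HL60, 192 in K562 and 182 in THP1; its part in the S1PR2 count was not tested.

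S1PR4, a receptor known from lymphoid and myeloid cells (ENSG00000125910, chr19:3172346-3180332, plus strand), had 55.3 normalised CPM in HL60 (95% 52.7 to 58.1, from 1650 reads). It had 2 reads in SUDHL4, at 0.0918, and 0 reads in K562 and THP1, which allows up to 0.0988 and 0.107. Scaled reads in HL60 were 753 times those in SUDHL4, with a wide counting interval of 208 to 6224 because of those 2 reads. HL60 stood alone here, and the remaining 3 lines could not be ordered. Its margin over them, 5.69 log2 units, was the largest of any member.

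S1PR3, a receptor that engages several G protein classes (ENSG00000213694, chr9:88990863-89005010, plus strand), had 27.9 normalised CPM in THP1 (95% 26.2 to 29.8) and 23.0 in HL60 (95% 21.3 to 24.8), against 4.96 in K562 and 0 reads in SUDHL4. THP1 exceeded HL60 1.22-fold (95% 1.10 to 1.34). HL60 exceeded K562 4.65-fold (95% 3.93 to 5.52), and K562 was at least 38.6-fold above the limit of 3 reads in SUDHL4. A gene was called shared by HL60 and THP1 when both had at least 5 normalised CPM and both lay at least 2 log2 units above K562 and SUDHL4, a rule added after the values were seen. S1PR3 passed it by little, at 2.01, and no longer passed when libraries were scaled to the column total or to 11 housekeeping genes. S1PR3 missed the minimum for being called low in SUDHL4 only because K562 had 4.96; a gene was called low in a line when the other 3 had at least 5 and the line lay 2 log2 units below them.

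S1PR5, known from NK cells and, in mice, from monocytes (ENSG00000180739, chr19:10512742-10517931, minus strand), had 2.18 normalised CPM in THP1 (71 reads), 0.466 in K562 (16 reads) and 0 reads in HL60 and SUDHL4. THP1 was 4.80-fold above K562 (95% 2.76 to 8.85). S1PR1, the egress receptor (ENSG00000170989, chr1:101236865-101243713, plus strand), had 0.643 in SUDHL4 (17 reads), 0.240 in K562 (8 reads) and 0 reads in HL60 and THP1. SUDHL4 was 2.76-fold above K562 (95% 1.13 to 7.40). S1PR1 was at the edge of detection, with at most 17 reads in a pure line.

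To compare receptors with each other, levels were divided by the length of each gene's merged exons in GENCODE 29. S1PR4 made up 94.97% of the summed S1P receptor level per kilobase in HL60 (33.2 of 35.0 normalised CPM per kb), and S1PR3 another 4.83%. S1PR2 made up 98.3% of that sum in SUDHL4 (10.46 of 10.6). In THP1, S1PR3 led with 67.7% (2.06 of 3.04), followed by S1PR5 with 25.6% and S1PR2 with 6.76%. K562 had the lowest sum, 0.674 per kb, of which S1PR3 was 54.2%, S1PR5 24.6%, S1PR2 14.4% and S1PR1 6.82%. With the length of the longest transcript the same receptor led in each line, at 92.7% in HL60, 97.4% in SUDHL4, 74.3% in THP1 and 60.6% in K562.

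**Figure D2:**
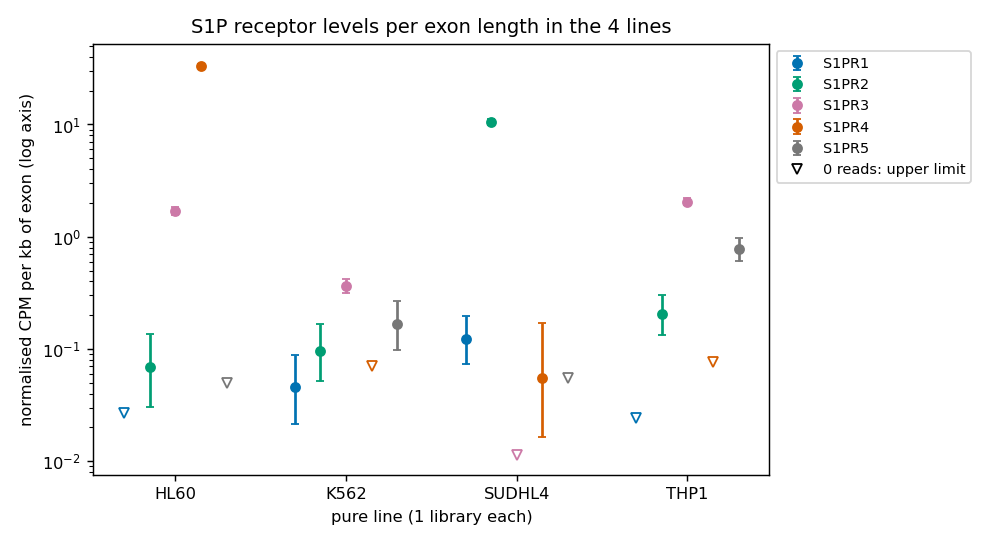
Level of the 5 S1P receptors in the 4 pure lines, in normalised CPM per kilobase of merged exons on a log axis; points are single libraries with exact 95% counting intervals and open triangles are upper limits for 0 reads. S1PR4 in HL60 (33.2) and S1PR2 in SUDHL4 (10.46) sit far above every other receptor of their line, and all receptors of K562 lie under 1.

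Downstream of the receptors, GNA13 and ARHGEF1 were present in all libraries and differed far less between lines. GNA13 (ENSG00000120063, chr17:65010715-65056839, minus strand) had 389 normalised CPM in SUDHL4 (95% 382 to 396), against 113 in HL60, 103 in K562 and 85.3 in THP1. SUDHL4 was 3.44-fold above HL60 (95% 3.31 to 3.58), a margin of 1.77 log2 units that fell just outside the rule for enriched genes; it became 2.06, inside the rule, with housekeeping scaling. K562 was 1.20-fold above THP1 (95% 1.15 to 1.27). HL60 was 1.10-fold above K562 as deposited, and below it with the other scalings (0.970-fold by column total, 0.848-fold by housekeeping genes), so that order is not settled. Per kilobase of exon, the GNA13 level was 76.2 in SUDHL4, 22.1 in HL60, 20.1 in K562 and 16.7 in THP1, above that of any S1P receptor in K562, SUDHL4 and THP1, whereas S1PR4 at 33.2 exceeded it in HL60.

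ARHGEF1 (ENSG00000076928, chr19:41883161-41930150, plus strand) had 116 normalised CPM in THP1 and 115 in HL60, which could not be separated (1.01-fold, 95% 0.960 to 1.05). SUDHL4 had 78.5 and K562 51.2. HL60 was 1.47-fold above SUDHL4 (95% 1.39 to 1.55; 1.02-fold with housekeeping scaling), and SUDHL4 1.53-fold above K562 (95% 1.44 to 1.63). The line with the most S1PR2 and GNA13 was therefore not the line with the most ARHGEF1. CD79A, the B cell receptor component that ends 1789 bases upstream of ARHGEF1 on the same strand, had 1003 in SUDHL4 against 12.1 in HL60, 1.36 in THP1 and 0.212 in K562. AC010616.1, which overlaps ARHGEF1 on the opposite strand, had 4.57 in SUDHL4 and 0.805 or less elsewhere. The part of these neighbours in the ARHGEF1 count was not tested. GNA13 and ARHGEF1 were the only members that could be called low in a line, and 0 of these 2 were, against 1.36% of genes for HL60, 3.62% for K562, 4.04% for SUDHL4 and 0.712% for THP1.

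SPHK1, a kinase that makes S1P (ENSG00000176170, chr17:76376584-76387860, plus strand), had 20.5 normalised CPM in K562 (95% 19.0 to 22.0, from 724 reads). It had 2.46 in THP1, 0.788 in HL60 and 0.569 in SUDHL4. K562 was 8.36-fold above THP1 (95% 6.63 to 10.7), and THP1 3.17-fold above HL60 (95% 1.97 to 5.28), while HL60 and SUDHL4 could not be separated (1.40-fold, 95% 0.700 to 2.88). K562 thus combined the highest SPHK1 with the lowest summed S1P receptor level. PRPSAP1, which overlaps SPHK1 on the opposite strand, was flat by comparison, at 30.8 in K562, 20.7 in THP1, 36.8 in HL60 and 36.5 in SUDHL4.

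GPR183, the oxysterol receptor (ENSG00000169508, chr13:99294530-99307405, minus strand), was high in HL60 and THP1 and lowest in the B cell lymphoma line. It had 29.3 normalised CPM in HL60 (95% 27.4 to 31.3) and 16.2 in THP1 (95% 14.8 to 17.6), against 3.23 in K562 and 1.01 in SUDHL4, from 114 and 27 reads. HL60 was 1.81-fold above THP1 (95% 1.63 to 2.02), THP1 5.02-fold above K562 (95% 4.09 to 6.203) and K562 3.25-fold above SUDHL4 (95% 2.12 to 5.14). Its margin of 2.02 met the rule for genes shared by HL60 and THP1, which was added after the values were seen. GPR183 was thus, with S1PR3, 1 of 2 members among 7 called shared, where 2.66% of all genes were. With column total or housekeeping scaling, GPR183 was the only shared member. GPR183 lies within UBAC2 on the opposite strand, a gene at 126 in HL60, 105 in THP1, 68.1 in K562 and 91.2 in SUDHL4. The sources used here do not state whether reads were counted by strand, so reads of overlapping genes may not be fully separated.

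Around the members, a list of 73 genes of S1P turnover, G protein signalling, RhoA and Rac control, and positioning receptors was examined, of which 71 were measured and 59 reached 5 normalised CPM in a line. CH25H, which starts synthesis of the GPR183 ligand, was not analysed here. Of the 59, 5 were enriched in SUDHL4, 4 in THP1, 3 in K562 and 2 in HL60 (GNA15 and CXCR4; 1 by column total and 0 by housekeeping scaling), and 3 were shared by HL60 and THP1. These are 8.47% in SUDHL4 (3.56% over all genes), 6.78% in THP1 (5.03%), 5.08% in K562 (4.6%), 3.39% in HL60 (0.973%) and 5.08% shared (2.66%). The called-low counts were 7 of 35 testable genes in K562, 2 of 33 in SUDHL4, 1 of 33 in HL60 and 0 of 32 in THP1, that is, 20% in K562 (3.62% over all genes), 6.06% in SUDHL4 (4.04%), 3.03% in HL60 (1.36%) and 0% in THP1 (0.712%). Over the 59 genes, the median of a line's difference from the average of the other 3 was -0.97 log2 units in K562, -0.07 in SUDHL4, 0.40 in HL60 and 0.43 in THP1. Over all 11717 genes those medians were 0.07, -0.10, 0.08 and -0.16.

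Genes of S1P turnover that were called were SGPP1 and SPNS2. SGPP1, an S1P phosphatase, had 55.8 normalised CPM in SUDHL4, against 11.5 in K562, 8.56 in HL60 and 2.77 in THP1. SGPL1, the lyase that destroys S1P, was also highest in SUDHL4, at 53.6 against 30.1 in HL60, 22.0 in K562 and 8.91 in THP1, with a margin too small for a call. SPNS2, an S1P exporter, had 16.4 in HL60 and 13.3 in THP1, against 0.0424 in K562 and 0.0551 in SUDHL4, which is 1 read each. SPHK2, the other sphingosine kinase, had 4.28 in K562 against 19.3 in HL60, 16.5 in THP1 and 11.7 in SUDHL4, so the K562 level was the highest of the 4 for SPHK1 and the lowest for SPHK2.

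Among G protein subunits and exchange factors, GNA12, the closest relative of GNA13, ran between 49.4 and 62.7 normalised CPM in the 4 lines. GNAQ had 0 reads in SUDHL4, against 117 in THP1, 105 in HL60 and 61.5 in K562. GNA15, a subunit of blood cells that ends 8577 bases upstream of S1PR4 on the same strand, had 306 in HL60 and 60.3 in THP1, against 0.325 in K562 and 0.129 in SUDHL4. In K562, GNAI2, the inhibitory subunit of leukocyte chemotaxis, had 74.1, against 518 to 731 elsewhere. K562 also had 7.10 for ARHGDIB against 924 to 2314 elsewhere, 5.60 for the Rac exchange factor DOCK2 against 210 to 235, and 13.5 for VAV1 against 127 to 169. ARHGEF12, an exchange factor that can stand beside ARHGEF1, was at 0.0503 in HL60 (1 read), against 200 in K562, 62.4 in SUDHL4 and 48.4 in THP1. RHOA, the shared target, had 642 in K562 and 885 to 1234 in the other lines.

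Among regulators of receptor output, FOXO1, GRK5 and RGS13 were enriched in SUDHL4 and ARRB1 was low there. FOXO1, a transcription factor of germinal-centre B cells, had 211 normalised CPM there, against 4.48 in THP1, 2.30 in K562 and 0.352 in HL60. KLF2, the transcription factor known to switch on S1PR1, was at 0.0918 in SUDHL4 (2 reads) and at 1.02 or less in the other lines. RGS13, a GTPase activator abundant in germinal centres, had 266 in SUDHL4 and 0.168 or less elsewhere. GRK5, a receptor kinase, had 21.8 in SUDHL4 against 0.466 to 0.993. ARRB1, an arrestin, had 0 reads in SUDHL4, against 35.4 to 43.4 elsewhere. RGS16 and RGS18, further GTPase activators, were low in K562, at 0.353 against 15.8 to 79.2 for RGS16 and at 0.0424 against 21.1 to 36.1 for RGS18.

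Of the chemokine receptors that position B cells, CXCR5, the follicle-homing receptor, had 107 normalised CPM in SUDHL4 and 0.486 or less elsewhere. CXCR4, the dark-zone receptor, had 163 in HL60, against 36.7 in THP1, 25.5 in SUDHL4 and 0.155 in K562. Receptors that can also couple to GNA13 were spread over the lines. LPAR1, LPAR4 and LPAR6, receptors of lysophosphatidic acid, were enriched in THP1 at 14.96, 14.4 and 7.41, with at most 1.09 in any other line. F2R and TBXA2R, the thrombin and thromboxane receptors, were enriched in K562 at 20.2 and 15.2, against 3.04 and 2.18 in THP1 and at most 0.285 in the remaining lines. HSD3B7, which inactivates the GPR183 ligand, had 34.5 in K562 against 3.59 in THP1, 0.620 in HL60 and 0.239 in SUDHL4. CYP27A1, a sterol hydroxylase, had 6.58 in THP1 and 0.0706 or less elsewhere. GGT1, of an enzyme family that breaks down the P2RY8 ligand, had 105 in HL60 and 54.9 in THP1, against 7.69 in SUDHL4 and 6.31 in K562. GGT1 has near-identical copies, and how reads shared between copies were counted is not stated, so its values are uncertain.

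**Figure D3:**
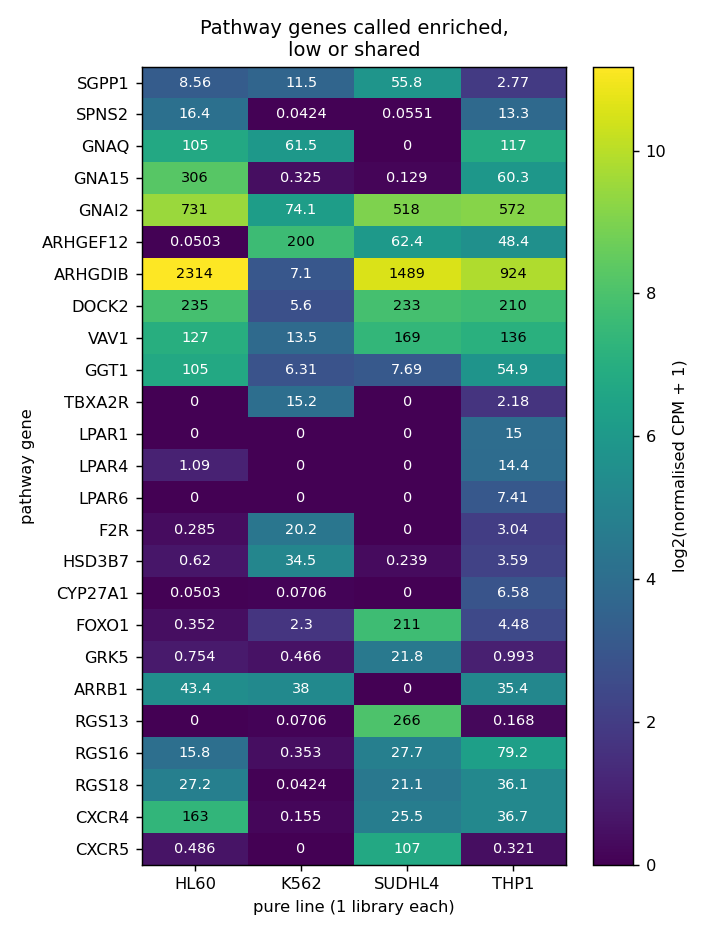
The 25 pathway genes called enriched, low or shared, in the 4 pure lines; colour is log2(normalised CPM + 1) and printed numbers are normalised CPM, 1 library each. SUDHL4 carries RGS13 (266), FOXO1 (211) and CXCR5 (107) and has 0 for GNAQ and ARRB1, and the K562 column is dark for GNA15, CXCR4 and RGS18.

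The mixtures showed the same genes under dilution. Coefficients of the 4 lines were estimated by non-negative least squares on 100 signature genes per line that exclude the members. The pure levels were then added up with these coefficients to predict each member. The coefficients of a mixture summed to between 0.905 (mixture 3) and 0.968 (mixture 6). They were not rescaled for the predictions, so small differences from a prediction depend on that choice. Each share given next is a coefficient divided by its sum. The estimated shares of RNA in mixtures 1 to 6 were 22.4, 6.71, 0.000273, 58.0, 11.8 and 11.5% for SUDHL4, 26.1, 48.9, 25.5, 10.51, 0.332 and 7.73% for HL60, and 22.5, 20.2, 39.2, 0.0136, 53.1 and 52.8% for K562, with THP1 making up the rest at 24.2 to 35.2%. In bulk RNA, fewer cells of a line and less RNA per cell cannot be told apart.

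S1PR2 had 10.4, 2.83, 0.283, 16.7, 4.32 and 6.43 normalised CPM in mixtures 1 to 6, against predictions of 8.54, 2.79, 0.422, 21.5, 4.77 and 4.65. It was highest in mixture 4 and lowest in mixture 3, the mixtures with the most and the least SUDHL4 RNA. S1PR4 had 16.3, 35.9, 8.49, 3.33, 0 and 3.82, against predictions of 13.9, 25.7, 12.8, 5.65, 0.188 and 4.15. Its 0 reads fell in mixture 5, where the HL60 share was 0.332%, and its peak in mixture 2, where that share was largest. SPHK1 had 6.51, 8.61, 10.7, 1.27, 18.2 and 14.9, against predictions of 5.42, 4.90, 8.23, 1.14, 11.4 and 11.3. SPHK1 was above its prediction in 6 of 6 mixtures, by 0.08 to 0.71 log2 units. In mixture 4 that prediction lay inside the counting interval. For every gene, the 6 predictions rest on the same 4 pure libraries, so they are not independent comparisons. The share of all genes above prediction in 6 of 6 was not counted.

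S1PR3 had 13.9, 13.7, 17.2, 10.9, 8.003 and 9.74 normalised CPM in mixtures 1 to 6, against predictions of 14.6, 18.0, 15.97, 10.8, 12.03 and 11.8. GPR183 had 12.6, 18.9, 12.7, 8.23, 8.98 and 8.33, against predictions of 12.8, 18.0, 13.1, 8.42, 7.32 and 8.33, and its prediction lay inside the counting interval in 5 of 6 mixtures. GNA13 had 136, 87.9, 97.2, 251, 89.1 and 120, against predictions of 158, 117, 89.7, 255, 126 and 127, and was below its prediction in 5 of 6. ARHGEF1 stayed between 79.7 and 109, within -0.15 to 0.25 log2 units of its predictions. S1PR1 had 0 to 0.423 and S1PR5 0.477 to 1.86, from few reads and all under the minimum of 5. For each, the prediction lay inside the counting interval in 4 of 6 mixtures. Outside it, S1PR5 had 1.13 against 0.592 in mixture 2 and 1.86 against 0.975 in mixture 5. S1PR1 had 0.423 against 0.190 in mixture 1 and 0 against 0.195 in mixture 6.

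By the rule that a gene is off its prediction when observed and predicted log2(value + 1) differ by at least 1 and either value is at least 5, 0 of 36 member and mixture pairs were off, against 0.442% of all 61532 pairs. The median absolute difference was 0.23 log2 units over the 36 member pairs and 0.14 over all pairs. Over all 54 member and mixture pairs, the prediction lay within the counting interval of the observed level in 23. By member this was 5 of 6 mixtures for GPR183 and 4 each for S1PR1 and S1PR5, whose few reads give wide intervals. It was 3 each for S1PR2 and S1PR3, and 1 each for S1PR4, GNA13, ARHGEF1 and SPHK1. The same share was not counted over all genes. With 1 library per mixture, the spread between repeated libraries is unknown.

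**Figure D4:**
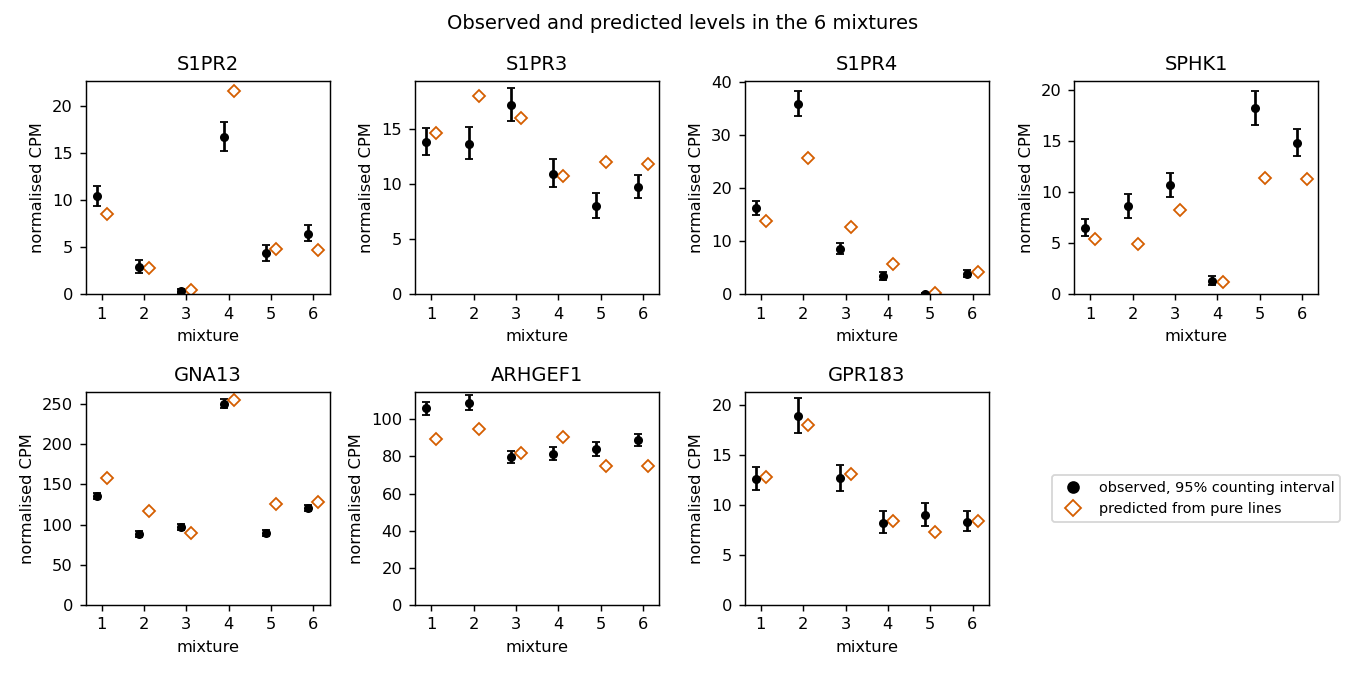
Observed level (black, with exact 95% counting interval) and level predicted from the pure lines (orange diamonds) of 7 members in mixtures 1 to 6, in normalised CPM on linear axes that start at 0, 1 library each. S1PR2 and GNA13 peak in mixture 4 (16.7 and 251), and S1PR4 peaks in mixture 2 (35.9). SPHK1 lies above its prediction in all 6 mixtures, in mixture 4 with the prediction inside the counting interval.

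SPHK1 can also be set beside other K562 genes as a percentage of its pure level, a measure that counts RNA from every line. SPHK1 stood at 31.8, 42.1, 52.1, 6.22, 89.1 and 72.6% of its pure K562 level in mixtures 1 to 6, against medians of 22.3, 19.4, 37.0, 1.05, 49.8 and 51.0% over the 538 other genes enriched in K562. It was above 85.9% (mixture 4) to 97.4% (mixture 3) of those genes. In mixture 4, 65.0% of the SPHK1 prediction came from THP1, 27.8% from SUDHL4 and 0.234% from K562. The rank in that mixture therefore says nothing about K562 RNA. S1PR4 stood at 29.4, 65.0, 15.4, 6.01, 0 and 6.90% of its HL60 level, against medians of 29.1, 48.4, 27.5, 14.3, 3.91 and 10.9% over 113 other HL60 genes, so it was higher than most in mixture 2 and lower than most in mixtures 3, 4, 5 and 6. S1PR2 stood at 27.3, 7.43, 0.742, 43.8, 11.4 and 16.9% of its SUDHL4 level, against medians of 24.1, 8.17, 1.75, 58.4, 13.6 and 13.1% over 416 other SUDHL4 genes. It was above 67.5, 41.3, 37.7, 6.01, 33.7 and 71.6% of those genes, so it was lower than nearly all of them in mixture 4.

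For each member that reached 5 normalised CPM, the 3 genes with the most similar pattern over the 10 libraries were taken, by the root mean square difference of log2(value + 1) centred per gene, among 11780 genes. The points share libraries and lines, so likeness here says only that genes vary alike across the lines. The highest line can differ: S1PR3 was highest in THP1, but LCP2 had 98.6 in HL60 and 91.3 in THP1. S1PR2 was closest to GPER1 (0.24), EBF1 (0.26), a B cell transcription factor, and TNFRSF17 (0.26), a receptor of late B cells. S1PR4 was closest to IL32 (0.24), CLC (0.28), a granule galectin, and the gene ENSG00000204169 (0.35), for which the table gives no symbol. S1PR3 was closest to LCP2 (0.23), ATP2B4 (0.24) and TRIQK (0.25). SPHK1 was closest to CDKN1C (0.12), a cell cycle inhibitor, SLC44A4 (0.22) and SHROOM1 (0.23). GPR183 was closest to NINJ1 (0.17), PLAU (0.18) and THEMIS2 (0.20). GNA13 was closest to DNAJC10 (0.10), TXNDC16 (0.13) and RNGTT (0.13), and ARHGEF1 to NELFB, PPP1R9B and NFKBIA (0.10 each).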

How the data were processed

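Bulk RNA sequencing of 4 pure lines and 6 mixtures was analysed, 1 library each, grouped by title. Per the labels' protocols, RNA came from a column kit, and libraries were stranded, made with a low-input total RNA kit or an mRNA kit; which library had which is not stated. Per the submitters' processing notes, the build was hg19 and the tools included featureCounts, HISAT2 and Cell Ranger ARC 2.0.0. The authors deposited 1 table of signal values, on the scale of CPM but rescaled between libraries by a method not given in the sources used here. Each value above 0 is whole reads plus 0.5 times a column step, for 100% of values within a tolerance of 0.01, from which reads were recovered; the gene with the fewest reads had 11 in all.

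The rules had been written for plain CPM and were applied to the deposited signal unchanged. With 1 library per group no test was run, and levels were compared with exact 95% Poisson intervals, ratios with exact binomial intervals, and a pseudocount of 1. The members and gene lists were chosen with earlier results of these data known. Genes named are the members, called or partner genes of the pathway list, neighbours, and the 3 most similar genes per member; others are said to have been chosen after their values were seen. Exon lengths and positions are from GENCODE 29 (GRCh38), not the authors' build; promoters are from RefSeq, which matched 9 members. Calls were checked on simulated reads. Alternatives were the pseudocount, margin, minimum level, scaling and signature genes. Python 3.11.15, pandas 2.3.3, numpy 2.4.6 and scipy 1.17.1 were used. P2RY8, CH25H and CCR6 were not analysed here.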

Additional observations from a re-analysis of the deposited data

How the results depend on the processing

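Of 171 alternatives over 27 results, 142 left the result in place and 29 moved it. A small change of a count was taken as in place, as was a count that stayed at 0. Reversal could not be scored for the 144 alternatives that concern counts. The order of lines below the highest was not among the results. That order changed with scaling for GNA13 in HL60 and K562 and for SPHK1 in HL60 and SUDHL4. For enriched, low and shared calls, the share of all genes was not counted at the altered margins, minimum levels and scalings. The counts that follow therefore describe the lists only and cannot be set against all genes. With a margin of 1 log2 unit, enriched members in SUDHL4 were 2 (S1PR2 and GNA13), pathway genes enriched in K562 were 7, pathway genes low in K562 12 and those low in THP1 3. With a margin of 3, enriched members in K562 were 0, members shared by HL60 and THP1 0, and pathway genes enriched in HL60, K562 and THP1 were 0, 0 and 2. At a minimum of 20, members shared were 1 (S1PR3) and pathway genes enriched in THP1 0. Members low in SUDHL4 were 1 (S1PR3) at a minimum of 1, with no filter, with the column total and with housekeeping scaling. Scaling to the column total left 1 shared member (GPR183) and 1 pathway gene enriched in HL60. Scaling to 11 housekeeping genes gave 2 enriched members in SUDHL4 (GNA13 added), 1 shared member (GPR183) and 0 pathway genes enriched in HL60; it moved the median of all genes in HL60 to -0.37, against 0.08 log2 units as deposited. With a difference of 0.5 log2 units, 5 of 36 member and mixture pairs were off their prediction, against 3888 of 61532 over all genes (6.32%). These 5 were S1PR3 in mixture 5, S1PR4 in mixtures 3 and 4, and SPHK1 in mixtures 2 and 5. Under the column total and housekeeping scalings, the margins were 1.88 and 2.06 for GNA13, 0.43 and 0.78 for S1PR3, 0.17 and 0.53 for ARHGEF1, and 0.66 and 0.31 for GPR183. The cause was not tested. No paired analysis was possible because each group holds 1 library and no test was run. Depth limits S1PR1 and S1PR5, and leaving out a replicate was not possible with 1 library per group.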

Other observations

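Some pathway genes that missed a call at a margin of 2 log2 units in the values as deposited, chosen here after their values were seen, also differed between lines. DOCK8, an exchange factor of leukocyte migration, had 430 normalised CPM in THP1 against 119 in HL60, 110.0 in SUDHL4 and 68.5 in K562. GRK2, a receptor kinase, had 533 in HL60 and 511 in THP1, against 138 in SUDHL4 and 77.6 in K562. RGS19 had 183 in HL60 and 109 in THP1, against 31.9 in SUDHL4 and 7.95 in K562, where it was called low with housekeeping scaling. CD69, a surface protein that holds S1PR1 inside lymphocytes, had 15.3 in HL60 and 6.42 in K562, against 0.275 in SUDHL4 and 0.0458 in THP1.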
